A study of Mus musculus with 8 samples.

Results

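The genes described here are the 2 liver X receptors (LXRs) and 6 genes of cholesterol efflux and lipid handling that LXRs are known to drive. They were chosen as a pathway with earlier results of these data known, so that their counts and medians are descriptions, and all 8 (Abca1, Abcg1, Apoe, Nr1h2, Nr1h3, Mylip, Pltp and Lpcat3) were found among the 47937 genes counted. Expression was measured by RNA-seq in bone marrow-derived dendritic cells (BMDCs) that lack 3 G protein-coupled receptor kinases (GRKs), enzymes that phosphorylate activated receptors and so end their signaling.

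LXRs are nuclear receptors for oxysterols, which are oxidized forms of cholesterol. As partners of retinoid X receptors they bind DNA and raise transcription of genes that move cholesterol out of the cell, carry it on lipoproteins, limit its uptake and remodel phospholipids. In macrophages this program empties the cell of the cholesterol taken up with debris and lipoproteins, and it is known to restrain inflammatory gene expression.

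The study asked how loss of GRK2, GRK3 and GRK6 alters BMDCs before and after maturation. Bone marrow of mice on a C57BL6/J background, older than 8 weeks, was cultured for 8 days with GM-CSF at 20 ng/ml. The 3xGrk-/- cells came from mice with a Vav-iCre transgene, floxed alleles of Grk2 and of Grk6 (both fl/fl) and a germline null of Grk3 (Grk3-/-), in which Cre is active from early hematopoietic precursors on, so that Grk2 and Grk6 are deleted in the blood lineages and Grk3 is missing from the whole animal; WT cells came from matched Cre-negative mice. Cells were left untreated (unstimulated) or received LPS, a bacterial ligand of Toll-like receptor 4, at 20 ng/ml for 24 h, and 2 libraries were made for each of the 4 groups. The study describes technical triplicates, and nothing says that the 2 libraries of a group came from separate cultures or mice, so the p-values measure only the spread between these libraries, which may be technical.

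Each library held 4713305 to 6933358 counted reads. The targeted kinases were lower in 3xGrk-/- cells, which checks the labels: Grk2 was at 320.6 ± 0.526 CPM (counts relative to library size, scaled for library composition; mean ± SD, n = 2) in unstimulated WT and 149 ± 3.55 in unstimulated 3xGrk-/- cells. All 3 kinase genes passed the test as lower in both stimulations. Grk3 fell by 0.36 on the log2 scale without LPS and by 0.42 with LPS, so reads from its locus remained in cells labelled Grk3-/-. One library stood apart by Gm42418, a gene that overlaps ribosomal RNA, which took 2.16% of the counts of LPS-stimulated 3xGrk-/- replicate 2 and 0.273% to 0.638% elsewhere; leaving that library out kept the genotype calls of the 8 genes after LPS. GM-CSF cultures hold dendritic cells and macrophages. All 10 dendritic cell markers examined and all 10 macrophage markers were detected in every library, whereas the 6 lymphocyte markers had at most 4 counts each.

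The sequence most often used to describe LXR binding is a direct repeat of AGGTCA spaced by 4 bases (DR4), and the proximal Abca1 promoter holds a well-known element of this kind. The 120 bases before the start of Abca1 are shown because Abca1 is the efflux gene whose difference between genotypes grew most with LPS. They lie at chr4:53159896-53160015 (GRCm38.p6, minus strand, sequence from RefSeq), and the capitals mark the 2 repeats of the closest match to the motif:
Abca1 promoter: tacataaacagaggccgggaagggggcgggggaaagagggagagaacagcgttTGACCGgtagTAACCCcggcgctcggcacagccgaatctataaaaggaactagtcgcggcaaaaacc
Abca1 DR4-like site, read on the opposite strand: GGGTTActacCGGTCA

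This site spans positions -67 to -52 from the gene start and differs from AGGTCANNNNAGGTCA by A1G, C5T and A11C, counted from 1 at the 5′ end of the motif. Both strands of the window from 250 bases before to 50 after each start were searched. A match with at most 3 differences was found in 21.9% of all 32851 promoters of that length, so the match alone does not set Abca1 apart. The closest matches of Nr1h2, Nr1h3, Lpcat3 and Apoe had 4 differences and those of Pltp and Mylip had 5. None of the 10 windows, from the 7 genes with an entry, came within 2 differences, a closeness reached by 3.02% of promoters. These letters describe only the bases near the start, and nothing about LXR binding was measured.

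The 8 genes are protein coding and lie on 6 chromosomes of GRCm38 (GENCODE M21). Both receptors and Pltp, Abca1 and Apoe are on the minus strand, with Nr1h3 at chr2:91184061-91202834, Nr1h2 at chr7:44549616-44553951, Abca1 at chr4:53030787-53159895, Apoe at chr7:19696109-19699188 and Pltp at chr2:164839518-164857711. On the plus strand are Abcg1 at chr17:31057675-31117988, Mylip at chr13:45389742-45412022 and Lpcat3 at chr6:124663027-124704418. Reads anywhere in the merged exons of a gene were counted, so coding and untranslated exons are not separated.

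Without LPS, 6 of the 8 genes rose in 3xGrk-/- cells, 0 fell, and Mylip and Lpcat3 did not pass the test. The median log2 fold change was 0.93, against 0.00 over all genes tested. The largest differences were in Apoe, Pltp, Nr1h3 and Abca1, and the smallest among those called were in Abcg1 and Nr1h2. Of 12000 genes tested, 44.7% passed, 22.1% as higher and 22.7% as lower in 3xGrk-/- cells (edgeR's quasi-likelihood test, Benjamini-Hochberg adjusted p under 0.05). With libraries scaled by their totals alone, the split of all calls moved from 2647 higher and 2722 lower to 1968 higher and 3525 lower.

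With LPS, 6 of the 8 genes were again higher in 3xGrk-/- cells and 0 lower, with Mylip now called and Nr1h2 no longer. The median log2 fold change was 1.96, and that over all genes tested was -0.01. Of 11830 genes tested after LPS, 48.6% passed, 24.7% as higher and 24% as lower in 3xGrk-/- cells. Scaling by totals alone moved the split from 2919 higher and 2835 lower to 2474 higher and 3572 lower.

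**Figure D1:**
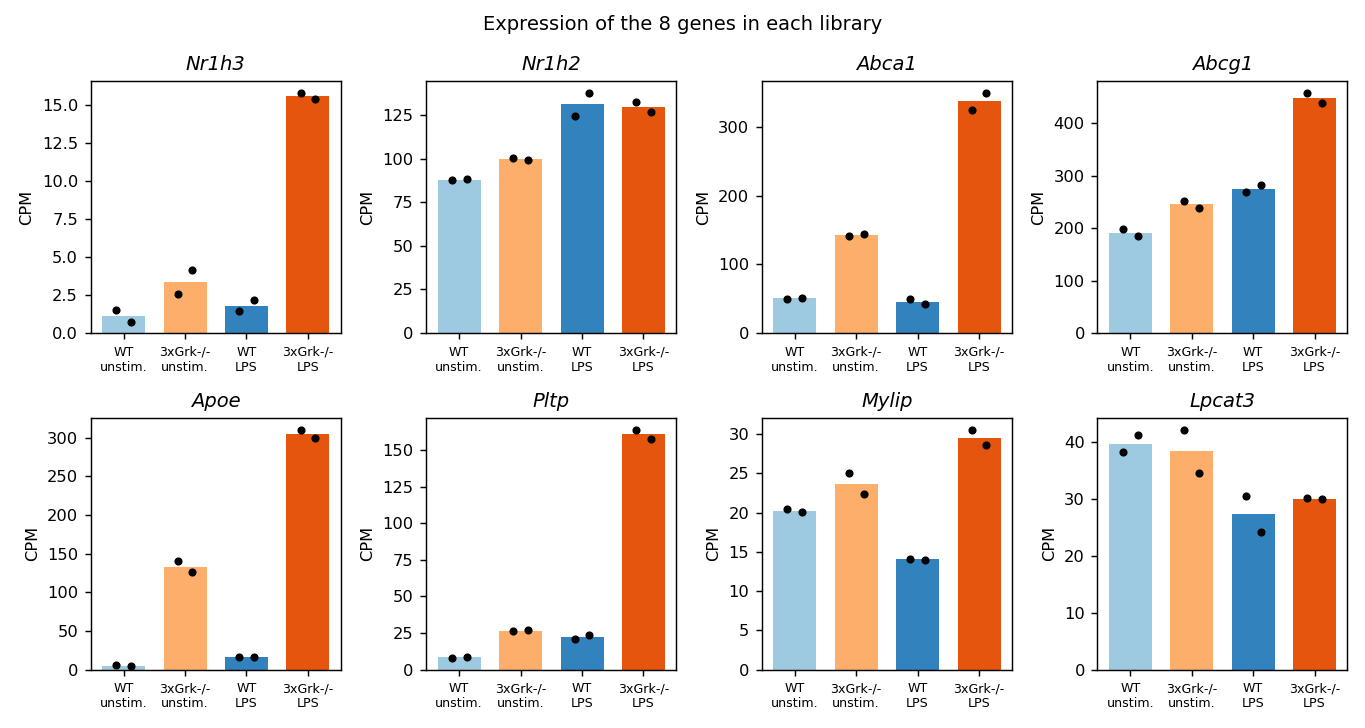
Expression of the 8 genes in CPM (y axis, from 0, on a scale of its own for each gene) in the 4 groups (x axis). Bars are the mean of 2 libraries and points the libraries: Nr1h3, Abca1, Apoe and Pltp were far above the other 3 groups in LPS-stimulated 3xGrk-/- cells, at 15.6, 337, 305 and 161 CPM, while Lpcat3 differed little between genotypes.

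Nr1h3 encodes LXR alpha, the receptor form typical of macrophages and liver. Unstimulated WT libraries had 1.53 and 0.701 CPM, which are 8 and 5 reads, and unstimulated 3xGrk-/- libraries had 2.54 and 4.17 CPM, or 17 and 24 reads. The groups did not overlap, but the counts were low. Nr1h3 was 3.09-fold higher in 3xGrk-/- cells (log2 fold change 1.63, SE 0.427, adjusted p = 0.00042 by edgeR's quasi-likelihood test). This call was lost without WT replicate 2, where the log2 fold change was 1.10 (adjusted p = 0.108), without 3xGrk-/- replicate 2 (1.26, adjusted p = 0.0819), and with DESeq2 (adjusted p = 0.145).

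After LPS the Nr1h3 difference was wider. WT libraries had 1.45 and 2.17 CPM, and 3xGrk-/- libraries 15.8 and 15.4 CPM. Both 3xGrk-/- libraries thus lay well above every other library in the data, with 87 and 95 reads. The 8.41-fold difference passed the test (log2 fold change 3.07, SE 0.265, edgeR adjusted p = 3.37e-09) and held when any of the 4 libraries was left out.

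Nr1h2 encodes LXR beta, the receptor form found in most tissues. It had 87.7 and 88.4 CPM in unstimulated WT and 101 and 99.5 CPM in unstimulated 3xGrk-/- cells, a small gap without overlap. The 1.14-fold difference passed the test (log2 fold change 0.18, SE 0.0667, edgeR adjusted p = 0.0152). The call was lost when any of the 4 libraries was left out, with log2 fold changes of 0.18 to 0.19 and adjusted p of 0.0510 (without 3xGrk-/- replicate 2) to 0.0923 (without 3xGrk-/- replicate 1), with scaling by totals alone (0.10, adjusted p = 0.225) and with DESeq2 (adjusted p = 0.256). After LPS the WT libraries had 125 and 138 CPM and the 3xGrk-/- libraries 132 and 127 CPM, so the genotypes overlapped. The 95% confidence interval of the log2 difference ran from -0.17 to 0.13 (edgeR adjusted p = 0.850). This leaves room for only a small difference between these libraries, and says nothing about the spread between mice or cultures.

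The ratio of the receptors is given as a description and was not tested. Without LPS it rests on 5 to 8 reads of Nr1h3 in WT and 17 to 24 in 3xGrk-/- libraries. Per exon length, Nr1h3 stood at 0.0106 and 0.0232 of the Nr1h2 level in unstimulated WT and at 0.0337 and 0.0559 in unstimulated 3xGrk-/- libraries. After LPS it stood at 0.0155 and 0.0210 in WT and at 0.159 and 0.162 in 3xGrk-/- libraries. Nr1h2 remained the more abundant receptor transcript in all 8 libraries.

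Abca1 is the membrane transporter that loads cholesterol and phospholipid onto lipid-poor apolipoproteins. Unstimulated WT libraries had 50.1 and 51.4 CPM and unstimulated 3xGrk-/- libraries 141 and 144 CPM. After LPS, WT libraries had 49.7 and 41.9 CPM and 3xGrk-/- libraries 325 and 349 CPM. The 4 WT libraries thus stayed in one narrow band, below all 3xGrk-/- libraries. Abca1 was 2.81-fold higher in 3xGrk-/- cells without LPS (log2 fold change 1.49, SE 0.0696, edgeR adjusted p = 5.06e-99) and 7.38-fold higher with LPS (log2 fold change 2.88, SE 0.0839, edgeR adjusted p = 4.90e-17).

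Abcg1 is the partner transporter, which passes cholesterol on to mature high-density lipoprotein. It was already well expressed in WT cells, with 198 and 185 CPM in unstimulated and 269 and 283 CPM in LPS-stimulated libraries. The 3xGrk-/- libraries had 253 and 239 CPM unstimulated and 458 and 439 CPM after LPS. The genotypes did not overlap in either state, and the differences were smaller than those of Abca1. Abcg1 was 1.29-fold higher without LPS (log2 fold change 0.36, SE 0.0479, edgeR adjusted p = 2.39e-13) and 1.62-fold higher with LPS (0.70, SE 0.0607, edgeR adjusted p = 3.94e-09). Per exon length, Abca1 was at 0.178 and 0.195 of the Abcg1 level in unstimulated WT libraries, and at 0.500 and 0.561 in LPS-stimulated 3xGrk-/- libraries.

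Apoe encodes apolipoprotein E, which macrophages secrete and which accepts the exported cholesterol. It was low in unstimulated WT cells, at 5.54 and 4.48 CPM (29 and 32 reads), and reached 140 and 126 CPM in unstimulated 3xGrk-/- cells. After LPS it was at 16.7 and 17.0 CPM in WT and at 310 and 299.6 CPM in 3xGrk-/- cells. Every 3xGrk-/- library thus exceeded every WT library several times over. Apoe was 26.9-fold higher in 3xGrk-/- cells without LPS (log2 fold change 4.75, SE 0.120, with an edgeR adjusted p too small to be represented), which placed it 16th of 12000 genes by size of increase. With LPS it was 18.0-fold higher (4.17, SE 0.0878, edgeR adjusted p = 2.70e-19) and placed 107th of 11830.

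Pltp encodes phospholipid transfer protein, which moves phospholipid between lipoproteins. Unstimulated WT libraries had 8.22 and 8.55 CPM and unstimulated 3xGrk-/- libraries 26.2 and 27.3 CPM. With LPS it stood at 20.9 and 23.4 CPM in WT and at 164 and 157 CPM in 3xGrk-/- libraries. LPS-stimulated WT cells thus came near the level of unstimulated 3xGrk-/- cells without reaching it. The difference between genotypes was 3.17-fold without LPS (log2 fold change 1.66, SE 0.158, edgeR adjusted p = 7.07e-25) and 7.23-fold with LPS (2.85, SE 0.0938, edgeR adjusted p = 3.97e-16). The library kit was stranded, but the strand setting of the counting is not given, and Pltp shares 495 exon bases with Ctsa on the opposite strand, which had 478 to 1780 reads, so reads of that stretch are uncertain.

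Mylip encodes an E3 ubiquitin ligase (also called IDOL) through which LXRs limit lipoprotein uptake. It had 20.4 and 20.04 CPM in unstimulated WT and 25.0 and 22.4 CPM in unstimulated 3xGrk-/- libraries. That gap did not pass the test (log2 fold change 0.23, 95% confidence interval -0.02 to 0.49, edgeR adjusted p = 0.142). After LPS, WT libraries had 14.2 and 13.9 CPM and 3xGrk-/- libraries 30.5 and 28.5 CPM. Mylip was then 2.10-fold higher in 3xGrk-/- cells (log2 fold change 1.07, SE 0.140, edgeR adjusted p = 1.65e-06).

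Lpcat3 encodes an acyltransferase that places polyunsaturated fatty acids into membrane phospholipids. It had 38.2 and 41.2 CPM in unstimulated WT and 42.2 and 34.6 CPM in unstimulated 3xGrk-/- libraries, and the genotypes overlapped. After LPS they overlapped again, with 30.5 and 24.3 CPM in WT and 30.2 and 30.0 CPM in 3xGrk-/- libraries. The 95% confidence interval of the log2 difference was -0.24 to 0.15 without LPS (edgeR adjusted p = 0.739) and -0.11 to 0.40 with LPS (edgeR adjusted p = 0.383). Lpcat3 was thus the gene of the 8 that passed the genotype test in neither state. It shares 334 exon bases with Emg1 on the opposite strand, which had 123 to 318 reads.

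**Figure D2:**
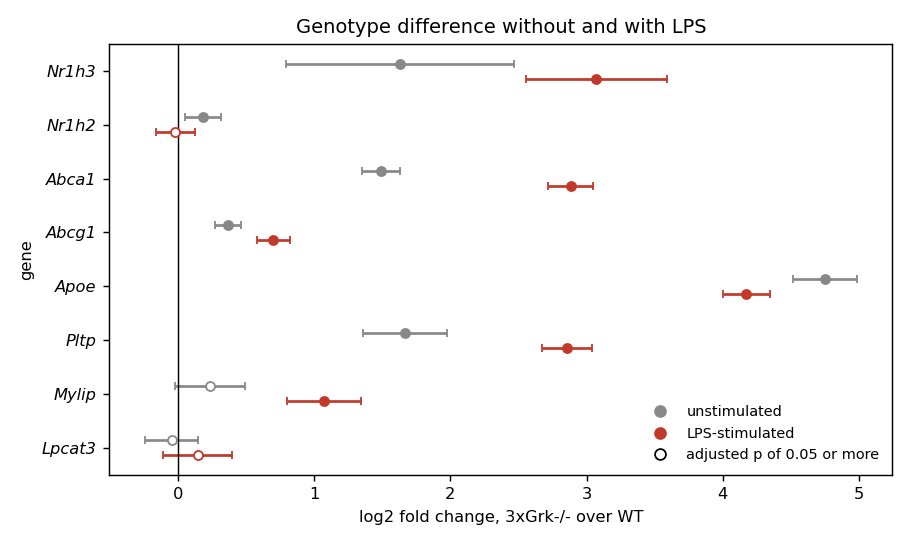
Log2 fold change of 3xGrk-/- over WT (x axis) for each gene (y axis), unstimulated in grey and LPS-stimulated in red. Bars are 95% confidence intervals and open points did not pass the test; Abca1 moved from 1.49 to 2.88 and Mylip from 0.23 to 1.07 with LPS, while Apoe went from 4.75 to 4.17.

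Whether the genotype difference changed with LPS was tested as an interaction over all 8 libraries. Of the 8 genes, 4 had a larger difference with LPS (Abca1, Pltp, Mylip and Abcg1), Apoe had a smaller one, and 3 did not pass. Over 12541 genes, 32.5% passed, 16.5% as larger and 16% as smaller. The median of the 8 genes was 0.59 and that of all genes tested 0.01.

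The difference for Abca1 grew by 1.40 on the log2 scale (SE 0.110, edgeR adjusted p = 3.99e-11) and that for Pltp by 1.19 (SE 0.187, edgeR adjusted p = 9.94e-06). Mylip followed with 0.84 (SE 0.183, edgeR adjusted p = 0.000637) and Abcg1 with 0.34 (SE 0.0795, edgeR adjusted p = 0.00137). These 4 calls came from genes with quite different roles, a pair of transporters, a lipid transfer protein and a ubiquitin ligase.

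For Apoe the difference dropped by 0.58 (SE 0.196, edgeR adjusted p = 0.0235). This call did not hold in 4 of the 8 fits with 1 library left out, where the change was -0.55 (adjusted p = 0.0569, without LPS-stimulated 3xGrk-/- replicate 2), -0.49 (0.0705, without unstimulated 3xGrk-/- replicate 1), -0.56 (0.0530, without LPS-stimulated WT replicate 2) and -0.39 (0.313, without unstimulated WT replicate 2). DESeq2 gave an adjusted p of 0.0929.

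Nr1h3 had the largest estimate, 1.44, but with an SE of 0.600 it did not pass (edgeR adjusted p = 0.0683). It did pass without unstimulated 3xGrk-/- replicate 2 (1.82, adjusted p = 0.0350), LPS-stimulated WT replicate 2 (1.78, 0.0418) or unstimulated WT replicate 2 (1.99, 0.0403). Nr1h2 gave -0.20 (adjusted p = 0.116), and -0.28 (adjusted p = 0.0155) without LPS-stimulated WT replicate 1. Lpcat3 gave 0.19 with a 95% confidence interval of -0.14 to 0.53 (edgeR adjusted p = 0.431).

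The response to LPS within each genotype shows the same libraries from the other side. Unstimulated and LPS-stimulated libraries are in separate count tables, and whether they were sequenced together is not stated, so the LPS response and any difference between runs cannot be told apart. The contrasts below come from 1 fit of all 8 libraries and share their control libraries with the comparisons above. With libraries scaled by totals alone, the median response of all genes moved to -0.23, a shift of -0.215 in WT and -0.218 in 3xGrk-/- cells. Under that scaling the split of all calls moved from 3702 higher and 3859 lower to 2443 and 5420 in WT, and from 3510 and 3435 to 2245 and 5200 in 3xGrk-/- cells.

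In WT cells, 4 of the 8 genes rose with LPS (Apoe, Pltp, Nr1h2 and Abcg1), 2 fell (Lpcat3 and Mylip) and 2 did not pass (Abca1 and Nr1h3). Over all genes tested in WT, 60.3% passed, 29.5% as higher and 30.8% as lower. Apoe rose 3.41-fold (log2 fold change 1.77, SE 0.177, edgeR adjusted p = 1.02e-09), from the low WT level given above. Pltp rose 2.64-fold (1.40, SE 0.150, edgeR adjusted p = 4.09e-09).

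Abca1 hardly moved in WT cells, at -0.16 (95% confidence interval -0.33 to 0.02, edgeR adjusted p = 0.138). It was called lower with scaling by totals alone (-0.37, adjusted p = 0.000747) and without LPS-stimulated WT replicate 1 (-0.27, adjusted p = 0.0168). Nr1h3 was at 0.79 with overlapping libraries and a 95% confidence interval of -0.21 to 1.79 (edgeR adjusted p = 0.177). Nr1h2 rose by 0.58 (SE 0.0696, edgeR adjusted p = 4.00e-08) and Abcg1 by 0.53 (SE 0.0574, edgeR adjusted p = 5.59e-09). Lpcat3 fell by 0.55 (SE 0.121, edgeR adjusted p = 0.000289) and Mylip by 0.53 (SE 0.141, edgeR adjusted p = 0.00205), the latter not called by DESeq2 (adjusted p = 0.0532).

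In 3xGrk-/- cells, 7 of the 8 genes rose with LPS and 1, Lpcat3, fell. There, 55.4% of all genes tested passed, 28% as higher and 27.4% as lower. The median of the 8 genes was 1.03, against 0.55 in WT, with -0.01 over all genes in both. Pltp rose 6.01-fold (log2 fold change 2.59, SE 0.0864, edgeR adjusted p = 2.92e-20) and Nr1h3 4.71-fold (2.23, SE 0.237, edgeR adjusted p = 3.93e-09). Abca1 rose 2.36-fold (1.24, SE 0.0626, edgeR adjusted p = 4.66e-16), close to the 2.29-fold of Apoe (1.19, SE 0.0635, edgeR adjusted p = 1.53e-15).

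Abcg1 rose by 0.87 (SE 0.0552, edgeR adjusted p = 9.42e-14) and Nr1h2 by 0.37 (SE 0.0687, edgeR adjusted p = 3.94e-05), the latter not called with scaling by totals alone (0.15, adjusted p = 0.0585). The rise of Mylip, 0.31 (SE 0.117, edgeR adjusted p = 0.0261), was not called without LPS-stimulated replicate 1 (0.27, adjusted p = 0.140), without unstimulated replicate 2 (0.24, 0.179), with scaling by totals alone (0.09, 0.517), without a filter on low counts (0.30, 0.0605) or by DESeq2 (0.260). The fall of Lpcat3, -0.36 (SE 0.120, edgeR adjusted p = 0.0130), was not called without LPS-stimulated replicate 2 (-0.35, adjusted p = 0.0599), without unstimulated replicate 1 (-0.20, 0.290) or by DESeq2 (0.141).

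**Figure D3:**
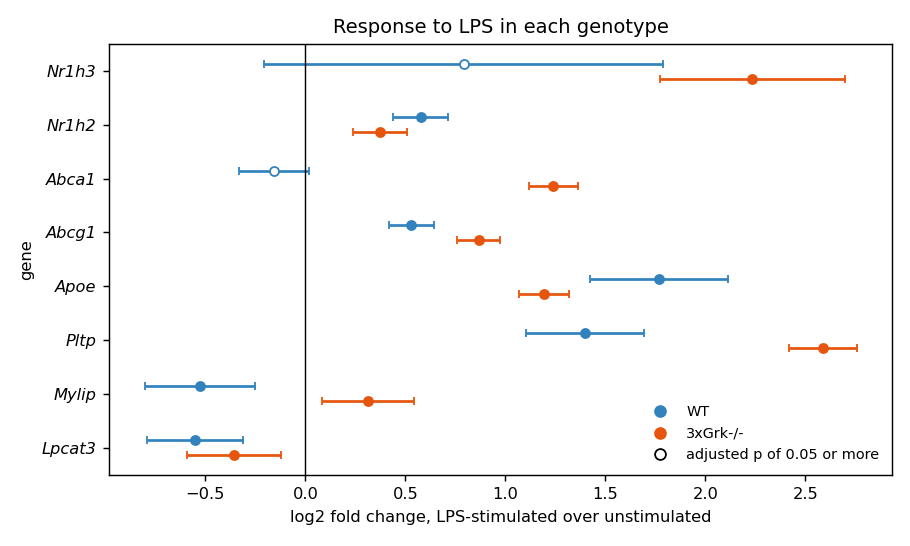
Log2 fold change of LPS-stimulated over unstimulated libraries (x axis) for each gene (y axis), in WT (blue) and 3xGrk-/- cells (orange). Bars are 95% confidence intervals and open points did not pass the test; Abca1 was at -0.16 in WT and 1.24 in 3xGrk-/- cells, and Mylip at -0.53 and 0.31.

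Divided by exon length, levels can be compared between the genes (CPM per kb of exon). In unstimulated WT cells Nr1h2 (26.3 ± 0.157, SD, n = 2) and Abcg1 (26.3 ± 1.19) led and did not differ beyond their spread. Lpcat3, Mylip, Abca1, Pltp and Apoe followed in that order without overlap, from 12.2 ± 0.648 down to 2.34 ± 0.349, and Nr1h3 was last at 0.443 ± 0.233. In unstimulated 3xGrk-/- cells Apoe led at 62.2 ± 4.83, ahead of Abcg1, Nr1h2 and Abca1, while Lpcat3 and Pltp overlapped and Mylip and Nr1h3 came last.

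LPS-stimulated WT cells kept Nr1h2 and Abcg1 on top, overlapping at 39.1 ± 2.75 and 37.8 ± 1.40. Below them Pltp overlapped with Lpcat3 and Lpcat3 with Apoe, and Abca1 overlapped with Mylip. In LPS-stimulated 3xGrk-/- cells Apoe stood at 142.6 ± 3.47, followed by Pltp (62.7 ± 1.75) and Abcg1 (61.4 ± 1.86), which overlapped. Nr1h2 and Abca1 (32.5 ± 1.66) came next, Lpcat3 and Mylip overlapped, and Nr1h3 was again last at 6.21 ± 0.116.

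**Figure D4:**
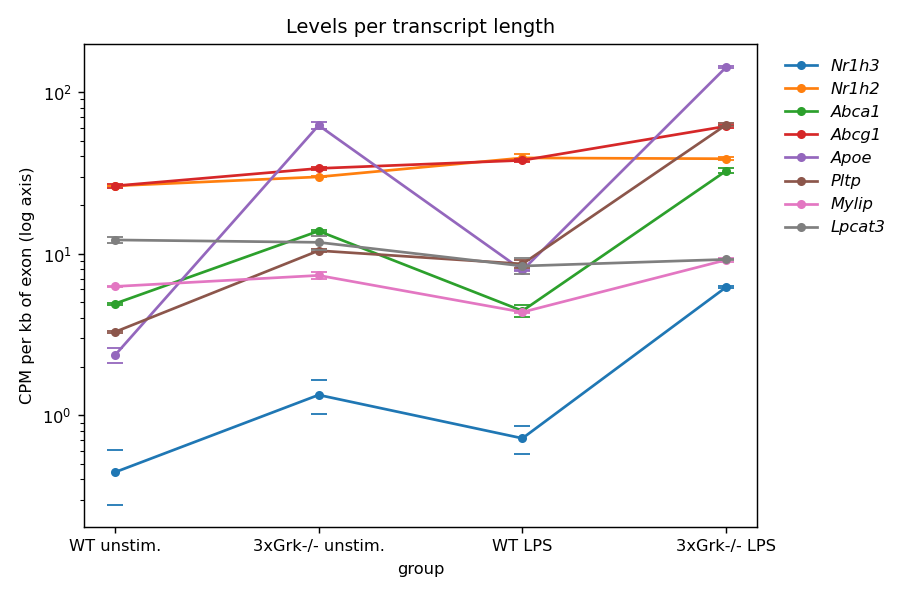
CPM per kb of exon (y axis, log scale) for the 8 genes in the 4 groups (x axis). Dots are means of 2 libraries joined by lines as a guide, and dashes the libraries: Apoe went from 2.34 in unstimulated WT to 142.6 in LPS-stimulated 3xGrk-/- cells, while Nr1h2 stayed between 26.3 and 39.1.

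Genes of several neighboring pathways were examined next: receptor partners, further LXR targets, oxysterol enzymes, cholesterol uptake, ester storage, synthesis, and relatives of the transporters and of Lpcat3. Their differences are given as log2 fold changes of 3xGrk-/- over WT, and a gene is called by the same edgeR tests. Over all genes tested, 22.1% were called higher and 22.7% lower without LPS, and 24.7% and 24% with LPS. The counts for each list below, and for the cell markers, are descriptions to be read beside these shares. Among the partners and coregulators of LXR, 4 of 12 tested genes were higher in 3xGrk-/- cells without LPS, 2 were lower and 6 did not pass (median 0.12), and with LPS 4 were higher, 4 lower and 4 did not pass (median 0.03). Rxra, an RXR partner of LXRs, was 0.26 higher without LPS (edgeR adjusted p = 0.0194). That call was lost without unstimulated WT replicate 2 (0.20), 3xGrk-/- replicate 1 (0.27) or 3xGrk-/- replicate 2 (0.25). It was also lost with scaling by totals alone (0.18, edgeR adjusted p = 0.132) and by DESeq2 (adjusted p = 0.328). After LPS Rxra was 1.42 higher (edgeR adjusted p = 1.1e-08), with 16.1 ± 1.34 CPM in WT and 42.8 ± 4.42 CPM in 3xGrk-/- cells. Rxrb, another RXR gene, was above Rxra per exon length in every group, at 13.0 ± 0.271 against 6.91 ± 0.371 CPM per kb in unstimulated WT cells. After LPS Rxrb did not rise with genotype, at 48.1 ± 4.87 CPM in WT and 43.1 ± 2.34 CPM in 3xGrk-/- cells. The coactivator Ncoa2 was 0.23 lower without LPS, which DESeq2 did not call (adjusted p = 0.0715), and 0.28 lower with LPS, which was lost without LPS-stimulated 3xGrk-/- replicate 1 (-0.26, 0.0736) or 2 (-0.27, 0.0638). Pparg, a related lipid-sensing receptor, was 1.21 lower on the log2 scale without LPS and 1.50 higher with LPS, at only 4 to 42 reads. DESeq2 called neither (adjusted p = 0.0779 and 0.245), and the call with LPS was lost when any of the 4 libraries was left out (edgeR adjusted p = 0.0532 without WT replicate 2 to 0.126 without 3xGrk-/- replicate 2). Rxrg and Ppara had 0 reads in all 8 libraries, which allows up to 3 reads per library.

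Other known LXR targets did not move as one. Of 12 tested without LPS, 6 were higher, 5 lower and 1 did not pass (median 0.22); of 13 tested with LPS, 7 were higher, 4 lower and 2 did not pass (median 0.46). Lpl, which frees fatty acids from lipoproteins, was 2.32 higher without LPS, at 3251 ± 27.3 against 650.1 ± 12.8 CPM. Scd1, a fatty acid desaturase, was 2.65 higher without and 2.25 higher with LPS. Mertk, a receptor for the uptake of dying cells, was 1.70 higher with LPS (35.3 ± 3.33 against 10.7 ± 2.34 CPM). Among the genes called lower, Fasn, the fatty acid synthase, had log2 fold changes of -1.13 without and -0.50 with LPS, and the elongases Elovl5 and Elovl6 had -1.03 and -0.96 without and -0.55 and -1.32 with LPS. The desaturase Fads2 was at -1.61 without LPS and at -0.84 with LPS, the latter not called by DESeq2 (adjusted p = 0.395) or without LPS-stimulated 3xGrk-/- replicate 2 (-0.35, 0.545), WT replicate 1 (-0.88, 0.0760) or WT replicate 2 (-0.77, 0.174). Srebf1, an LXR-driven regulator of fatty acid synthesis, was 0.16 higher without LPS, which did not pass (edgeR adjusted p = 0.0536), and 0.46 higher with LPS (edgeR adjusted p = 0.000129). Cd5l, a secreted macrophage protein, had 29 to 38 reads in LPS-stimulated 3xGrk-/- libraries and 0 to 2 in LPS-stimulated WT libraries. Abcg5, Abcg8, Apoc1, Apoc2 and Apoc4 had at most 5 reads in any library and were not tested.

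The enzymes that make or use oxysterols split. Ch25h, which makes 25-hydroxycholesterol, was 1.80 higher in 3xGrk-/- cells without LPS (7.55 ± 1.59 against 2.20 ± 0.135 CPM) and 2.11 higher with LPS (31.8 ± 1.31 against 7.41 ± 1.07 CPM). Cyp27a1, which makes 27-hydroxycholesterol, was 0.80 lower without LPS and 1.01 lower with LPS, the latter not called by DESeq2 (adjusted p = 0.0708). Cyp11a1, a mitochondrial side chain cleavage enzyme, was 0.71 lower without LPS, where DESeq2 did not call it (adjusted p = 0.0732), and 1.90 lower with LPS, and Hsd3b7 did not pass in either. Cyp7b1, Cyp46a1 and Sult2b1 had at most 4 reads in any library.

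Genes of cholesterol uptake and lysosomal export were mostly higher in 3xGrk-/- cells. Without LPS 7 of 9 tested were higher, 0 lower and 2 did not pass (median 0.81), and with LPS 8 were higher, 0 lower and 1 did not pass (median 1.13). Msr1, a scavenger receptor, was 2.19 higher without and 4.06 higher with LPS, and Lrp1, an endocytic receptor for lipoproteins that carry apolipoprotein E, was 3.17 and 1.13 higher. Olr1, a receptor for oxidized lipoproteins, was 2.57 higher without LPS, and Lipa, the lysosomal acid lipase, 1.97 higher with LPS. Vldlr had at most 2 reads.

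Among genes of ester storage, 4 of 6 were higher and 1 lower without LPS (median 0.39), and 4 were higher and 2 lower with LPS (median 1.71). Soat1, which esterifies cholesterol, was 1.70 higher with LPS, Nceh1, which hydrolyzes the ester, 2.39 higher, and the lipid droplet genes Plin2 and Hilpda 1.72 and 4.56 higher. Acat1, which was lower in both states, encodes a mitochondrial acetyl-CoA acetyltransferase that does not esterify cholesterol despite its name. Without it, 4 of 5 genes were higher and 0 lower without LPS (median 0.41), and 4 were higher and 1, Lipe, lower with LPS (median 1.72), a count added after the data were seen.

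Cholesterol synthesis genes, a list that also holds the regulators Srebf2, Scap and Insig1, were lower in 3xGrk-/- cells or did not pass. Without LPS 7 of 14 were lower, 0 higher and 7 did not pass (median -0.31), and with LPS 9 were lower, 0 higher and 5 did not pass (median -0.64). With LPS, Cyp51 was 1.96 and Fdps 1.36 lower, the latter at 12 to 45 reads and not called by DESeq2 (adjusted p = 0.0650). Without LPS, Sqle was 0.67 and Hmgcs1 0.56 lower.

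Relatives of the 2 efflux transporters gave 3 higher, 1 lower and 4 not passed of 8 without LPS, and 3 higher, 2 lower and 3 not passed of 8 with LPS. Abcg4, which like Abcg1 exports sterols, was 2.31 higher without LPS and 1.29 lower with LPS, at 6 to 98 reads, and Abca5 was 2.50 lower with LPS. Abcg2 was 1.09 lower without LPS, which DESeq2 did not call (adjusted p = 0.104). Relatives of Lpcat3 gave 2 higher, 2 lower and 3 not passed of 7 without LPS, and 3 higher, 2 lower and 2 not passed with LPS. Lpcat2 was 0.72 and 0.88 higher and Lpcat4 0.56 and 0.73 lower, without and with LPS. Mboat7 was 0.35 higher without LPS, again not called by DESeq2 (adjusted p = 0.0765).

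**Figure D5:**
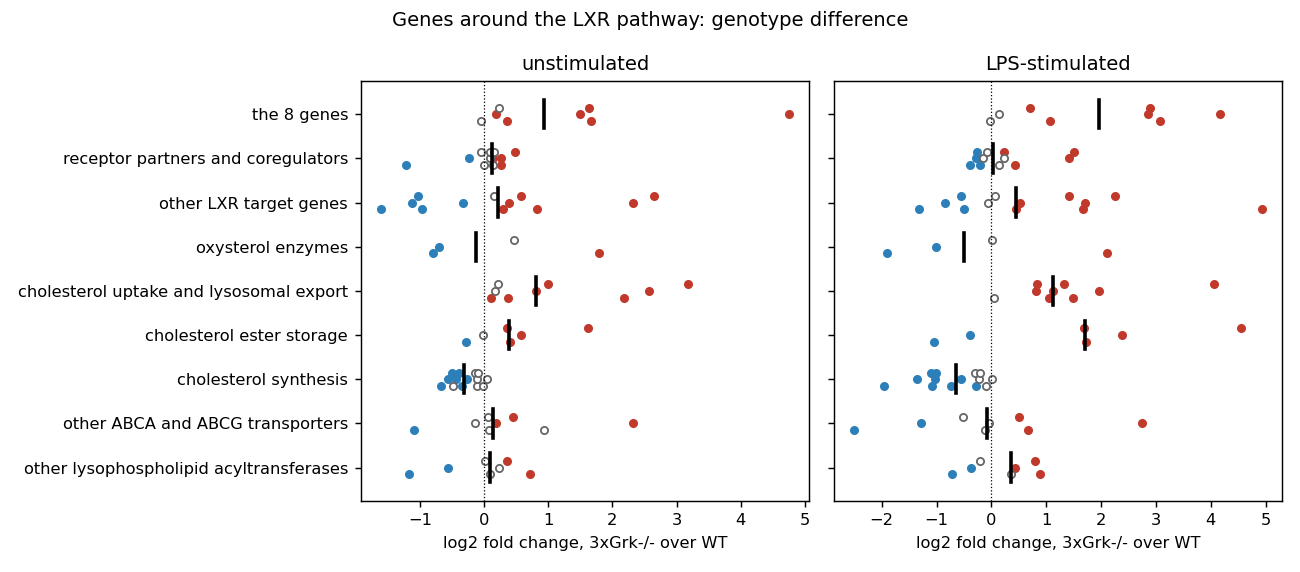
Log2 fold change of 3xGrk-/- over WT (x axis) for the genes of each group (y axis), unstimulated at left and LPS-stimulated at right. Each point is a gene (red higher, blue lower, open not passed) and each black line the median of the group: the 8 genes had medians of 0.93 and 1.96, uptake and lysosomal export genes 0.81 and 1.13, and synthesis genes -0.31 and -0.64.

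The cell makeup of the cultures differed by marker transcripts, and in bulk samples fewer cells of a type and less RNA per cell cannot be told apart. The 10 macrophage markers summed to 1000 to 1022 CPM in unstimulated WT libraries and to 1552 to 1604 CPM in unstimulated 3xGrk-/- libraries, with 5 higher, 4 lower (C1qa and Fcgr1 among them) and 1 not passed. The lipid receptor Trem2 was 2.87 higher and the lysosomal protein Cd68 2.09 higher on the log2 scale, whereas the complement genes C1qb and C1qc were 1.94 and 1.88 lower. Their median genotype difference without LPS was 0.38, and that of the 8 LXR pathway genes 0.93. After LPS they summed to 401 to 405 CPM in WT and to 2840 to 2897 CPM in 3xGrk-/- libraries, with all 10 higher, and the median genotype differences were 2.64 for the markers and 1.96 for the 8 LXR pathway genes. Trem2 was then 4.58 and Cd68 3.99 higher. None of these markers was at 0 in any library, and their part in the results above was not tested.

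The 10 dendritic cell markers summed to 14186 to 14221 CPM in unstimulated WT and 7015 to 7142 CPM in unstimulated 3xGrk-/- libraries (3 higher, 7 lower), and to 9233 to 9883 and 7814 to 7973 CPM after LPS (2 higher, 8 lower). Kmo was 1.75 and 1.66 lower without and with LPS and the MHC class II gene H2-Ab1 1.67 lower without LPS, while the cytokine receptor Flt3 was 0.95 and 1.35 higher and the integrin Itgax 2.34 higher with LPS. The 5 eosinophil markers summed to 896 to 966 CPM in the 4 WT and to 36.2 to 57.6 CPM in the 4 3xGrk-/- libraries, with Il5ra at 0 in 1 library, LPS-stimulated 3xGrk-/-. Epx, the eosinophil peroxidase, had log2 fold changes of -5.89 without and -6.37 with LPS. The 10 neutrophil markers summed to 807 to 848 and 1262 to 1291 CPM without LPS and to 360.0 to 417 and 548 to 570 CPM with LPS, in WT and 3xGrk-/- libraries. Of these, 1 was higher and 5 lower without LPS, and 1 higher and 6 lower with LPS, and Retnlg was at 0 in 1 library, LPS-stimulated WT. The marker that was higher is Mmp8, the neutrophil collagenase, which was 2.84 higher without and 3.85 higher with LPS. Without Mmp8 the other 9 markers summed to 701 to 744 CPM in unstimulated WT and 518 to 535 CPM in unstimulated 3xGrk-/- libraries, and to 335 to 391.6 and 186 to 203 CPM after LPS, so the order of the genotypes was the opposite. S100a9 was 0.67 and 1.30 lower and Camp 1.14 and 1.37 lower, without and with LPS. The part of these cell types in the results was not tested.

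Rarer cell types had low marker sums. The 6 mast cell and basophil markers summed to 32.9 to 52.1 CPM, the 6 stromal markers to 10.8 to 25.6 CPM, the 5 erythroid markers to 2.66 to 16.7 CPM with Hba-a1 and Car1 at 0 in all libraries, and the 6 lymphocyte markers to 0.150 to 1.34 CPM. The stromal sum was highest in LPS-stimulated 3xGrk-/- libraries, at 21.3 and 25.6 CPM, against 14.4 and 16.9 CPM in LPS-stimulated WT libraries, and its part in the results was not tested.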

How the data were processed

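RNA-seq libraries of WT and 3xGrk-/- BMDCs, unstimulated or LPS-stimulated, were grouped by their labels, 2 per group. The authors aligned reads to mm10 (GRCm38) with STAR in the snakePipes workflow and counted them per gene with featureCounts; the values deposited are raw counts, in 1 table per stimulation. The annotation release and strand setting are not given in the sources used here. Gene names, exon lengths and coordinates came from GENCODE M21 (47224 of 47937 IDs matched without their version, 39106 with it; the rest held 0.0847% of counts). Dose, times and culture conditions are from the study's methods.

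Counts were analysed with edgeR 4.0.16 (R 4.3.3; TMM scaling, filterByExpr, glmQLFit, glmQLFTest, Benjamini-Hochberg over all genes tested, adjusted p under 0.05), each stimulation on its own for genotype, and all 8 libraries in 1 fit for the LPS responses and the interaction. Fold changes are on the log2 scale and 95% confidence intervals use the SE and the normal distribution. CPM are TMM-scaled. The common biological coefficient of variation was 0.0306 without LPS, 0.0573 with LPS and 0.0463 in the joint fit. Within groups, replicate counts varied beyond counting error (chi-square per gene 1.59 to 9.02 as a mean, and, as computed from the median gene, 1.16 to 1.92), so none was treated as a copy. The fits were tested on simulated counts with known changes. Alternatives were DESeq2 1.42.0, RLE and library-size scaling, other filters, fixed coefficients of variation of 0.1 and 0.4, a replicate block, other sets of libraries in the fit, a minimum log2 fold change of 1, and leaving out each library. Promoters were searched with Python 3.11.15.

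The 8 genes and all lists were chosen with earlier results of these data known. Beside them and the 3 kinase genes, named genes were taken from the 2 of each list with the largest called change in each direction and with a mean log2 CPM of at least 1 (not all of them are described), genes below the filter, and, for 4 of the 8 genes, the 3 most alike across libraries. Srebf1, Elovl5, Hsd3b7, Cd5l, Soat1, C1qa, Fcgr1 and S100a8 were named for their roles, and the genes like Pltp were added, after their values were seen. Some genes of the neighboring pathways are not reported here and were left out of the lists.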

Additional observations from a re-analysis of the deposited data

Results flagged for a closer look

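The genotype difference changed with LPS, by the interaction test over 8 libraries (edgeR's quasi-likelihood test, Benjamini-Hochberg adjusted), in 51 of 78 genes singled out from the lists. Over all 12541 genes tested, 32.5% passed. Most of the 78 were taken for a large genotype difference in one stimulation, which itself favors a difference between stimulations, so nothing about the lists is read from this count. Values are the log2 fold change with LPS minus that without. Among the 8 genes these were Abca1 (1.40), Abcg1 (0.34), Mylip (0.84), Pltp (1.19) and, with a smaller difference after LPS, Apoe (-0.58).

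Among receptors, partners and targets, the value was 1.16 for Rxra, -0.53 for the coactivator Ncoa3, 2.72 for Pparg and -0.74 for Ppard. It was 1.42 for Mertk, -0.64 for Lpl, 0.63 for Fasn and -1.19 for Cyp11a1. It was 0.30 for Srebf1 and 0.48 for Elovl5. The Pparg estimates lay on opposite sides of 0 without and with LPS, but at 4 to 42 reads, and DESeq2 called neither (adjusted p = 0.0779 and 0.245).

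Among uptake and storage genes it was -2.04 for Lrp1, 1.87 for Msr1, -1.08 for Olr1 and 1.15 for Lipa. It was 1.29 for Soat1, 2.03 for Nceh1, -0.37 for Lipe, the hormone-sensitive lipase, 1.14 for Plin2, -0.77 for Acat1 and 2.94 for Hilpda. Cholesterol synthesis genes named had negative values, -0.54 for Hmgcs1 and -1.46 for Cyp51.

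Among relatives of the transporters it was 0.47 for Abca3, -2.58 for Abca5, -0.57 for Abca7, 2.06 for Abcg3 and -3.61 for Abcg4, whose genotype difference changed sign, and among relatives of Lpcat3 -0.46 for Lpcat1 and 0.56 for Agpat4.

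Among macrophage markers it was 1.91 for Cd68, 4.56 for Fcgr1, 4.38 for C1qa, 4.01 for C1qb, 4.397 for C1qc and 1.72 for Trem2. Among dendritic cell markers it was -0.56 for Ccr7, 0.66 for Ciita, 1.26 for H2-Ab1 and 2.15 for Itgax. Neutrophil markers gave -0.48 for S100a8, -0.62 for S100a9 and 1.01 for Mmp8, and the values were -1.15 for the mast cell and basophil marker Gata2 and -2.89 for the erythroid marker Hbb-bt. Among the targeted kinases it was -0.78 for Grk2 and -0.35 for Grk6.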

How the results depend on the processing

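Across alternatives, the genotype differences of Abca1, Apoe and Pltp kept their direction, and after LPS so did those of Abcg1, Nr1h3 and Mylip, but not every call held: with LPS, 4 of the 8 genes were called at a coefficient of variation of 0.4, 5 with a log2 fold change of at least 1 and 5 with at least 10 counts in every library, where Nr1h3 was not tested. Without LPS, 5369 genes were called, against 2831 by DESeq2, 2905 and 448 with fixed coefficients of variation of 0.1 and 0.4, and 1444 with a log2 fold change of at least 1; with LPS, 5754 against 3663 (DESeq2), 782 (0.4) and 1984 (at least 1). The LPS response gave 7561 in WT, against 1110 (0.4) and 2700 (at least 1), and 6945 in 3xGrk-/- cells, against 850 and 2373. The interaction gave 4070, against 2450 (DESeq2), 2161 (0.1), 72 (0.4) and 1375 (at least 1). Of the 8 genes, the coefficient of 0.4 left 1 called without LPS, 0 for the LPS response in WT, 2 for that in 3xGrk-/- cells and 0 for the interaction; a log2 fold change of at least 1 left 2, 4 and 2 for the last 3, and the coefficient of 0.1 left 3 for the interaction. In the fits with a fixed coefficient, the same spread was set for all genes and edgeR's likelihood ratio test replaced the quasi-likelihood test. Which of these changed the counts, and why DESeq2 called fewer, was not tested. The minimum fold change can only remove calls.

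Leaving out 1 library gave 4253 to 4788 genes without LPS (4 to 5 of the 8 genes), 4460 to 5712 with LPS (6 to 6), 6417 to 7601 for the response in WT (6 to 7), 5844 to 7410 for that in 3xGrk-/- cells (7 to 8) and 3328 to 4199 for the interaction (4 to 6).

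Signs turned only for differences that were not called. Leaving out 1 library, the log2 fold change of Nr1h2 with LPS ran from -0.079 to 0.0649, that of Lpcat3 from -0.2043 to 0.0823 without LPS and from -0.01 to 0.317 with LPS, that of Lipe without LPS from -0.1248 to 0.0727, that of Abca5 without LPS from -0.1298 to 0.2364, that of Hsd3b7 with LPS from -0.1536 to 0.1864 and that of Mboat1 with LPS from -0.5847 to 0.0893. Without a filter on low counts, Nr1h2 with LPS became 0.0054 and Lipe without LPS 0.0003, and with library size only Abca5 without LPS became -0.0084 and Hsd3b7 with LPS -0.0791. The cause was not tested.

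Replicate numbers are shared between groups, but same-numbered libraries did not deviate together (correlations of -0.0654 to 0.0718 over 9150 genes). With the number as a block, 5292 genes were called without LPS, 5654 with LPS, 7438 and 6793 for the LPS responses in WT and 3xGrk-/- cells, and 3884 for the interaction, with 6, 6, 6, 8 and 5 of the 8 genes called. With at most 24 reads for Nr1h3 outside LPS-stimulated 3xGrk-/- cells, depth limits its smaller differences.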

Other observations

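The genes whose levels followed each of 4 members most closely were found by Pearson's r of log2 CPM over the 8 libraries, among 9139 genes. The libraries share their 4 groups, so r is a description with no p. For Abca1 these were C3 (r = 0.996), the central complement component, the formyl peptide receptor Fpr2 (0.996) and the Fc receptor Fcgr3 (0.995). C3 had mean levels of 208 CPM in unstimulated WT, 606 in unstimulated 3xGrk-/-, 212 in LPS-stimulated WT and 1296 in LPS-stimulated 3xGrk-/- cells.

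For Abcg1 they were the interferon-induced Oas2 (0.999), Sbno2 (0.998) and Ndfip2 (0.995). Oas2 spanned a wider range than Abcg1, with 9.82, 22.7, 35.6 and 204 CPM in the same order of groups. For Apoe they were Sntb2 (0.999), the membrane-bound matrix metalloproteinase Mmp14 (0.996) and Cyp26b1 (0.995), which breaks down retinoic acid. Cyp26b1 went from 1.33 CPM in unstimulated WT to 39.1 CPM in LPS-stimulated 3xGrk-/- cells. For Nr1h3, itself at low counts, they were Sumf1 (0.995), Znhit1 (0.992) and Pim3 (0.989). For Pltp, added after the values were seen, they were Lgmn (0.998), a lysosomal protease, Adgre1 (0.998), which encodes the macrophage marker F4/80, and Thbs1 (0.998). Adgre1 had mean levels of 104, 265, 209 and 1170 CPM in the same order of groups.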
